A study of Mus musculus with 10 samples.

Results

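The 10 genes described here, Sec61b, Erp44, Vcp, Creb3, Calu, Ube2j1, Golph3, Dnaja1, Bag1 and Cct5, encode proteins of the secretory pathway and of protein folding. They were taken as a fixed list of symbols, matched to Ensembl identifiers through GENCODE M21, and were kept only where the gene lies in 1 of 3 stretches of the mouse genome (build mm10) in which counts follow gene names: chromosome 4 up to 59.9 Mb, chromosome 6 up to 30.3 Mb and chromosome 15 from 10.4 to 38.1 Mb. All 10 lay inside, among 1415 rows there and 55416 rows in all.

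RNA was sequenced from whole colon of mice given 2% dextran sulfate sodium (DSS) in the drinking water for 7 days, a chemical injury of the colonic epithelium that causes colitis. The study compared WT mice with mice lacking Vista, an inhibitory immune checkpoint protein encoded by Vsir, and every library came from a DSS-treated animal, so no untreated colon is part of the comparison. Knockout libraries 1 to 3 carry the genotype label "VISTA knockdown", knockout libraries 4 and 5 carry "Vista-/-", and WT libraries 1 to 5 are labelled WT. Both knockout labels were treated as 1 group and are called knockout here. A first deposited table held knockout 1 to 3 and WT 1 to 3, and a second held knockout 4 and 5 and WT 4 and 5. The design text speaks of 3 biological replicates per group, but the labels give no age or strain. Each library's title carries a tag of its own, but the labels do not say which animal gave which library. P-values therefore measure the spread between libraries, which may in part be technical.

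The secretory pathway starts at the endoplasmic reticulum (ER), where the Sec61 channel threads new proteins through the membrane and folding enzymes and calcium-binding proteins help them mature. Proteins that fail to fold are marked with ubiquitin, pulled out of the ER and degraded in the cytosol, while finished proteins pass through the Golgi to the cell surface. In the cytosol, heat shock protein partners and a ring-shaped chaperonin fold other new proteins. The colon relies on this machinery heavily, since goblet cells release mucin and plasma cells release antibody.

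Library totals ran from 3691322 to 4071238 counts, of which between 9.90% and 10.6% fell inside the 3 regions. Row names outside were not used: the ER chaperone rows Hspa5 and Hsp90b1 and the stress factor row Xbp1 lie outside and held 0 counts over all 10 libraries, and the beta-actin row Actb held 75. The row named Vsir also lies outside. It held between 27 and 97 counts in the knockout libraries, between 42 and 82 in WT 1 to 3, and 5 and 0 in WT 4 and WT 5, so it does not check the genotype labels. On the first principal component, which held 37.2% of the variance, WT 4 and WT 5 stood apart at 41.0 and 44.6, with the other 8 libraries between -24.4 and 6.33. Epithelial markers were counted in every library, with Cdh17, Klf4, Grhl2, Esrp1 and Cftr summing to between 7027 and 8060 CPM (a row's share of the library's counts, scaled to a fixed total) in the knockout and between 7134 and 9004 in WT.

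Promoter sequences of 3 of the genes are shown: Dnaja1, because it alone of the 10 was called, in 1 of the 4 comparisons, and Ube2j1 and Vcp, because their windows hold a motif tied to ER stress. The windows come from RefSeq on GRCm38.p6 (mm10), run 5′ to 3′ on the gene's own strand, and span 250 bases before to 50 bases after a start site. Capitals mark TGACGTGG, the unfolded protein response element, read on either strand. The Dnaja1 window is chr4:40722672-40722971 on the plus strand, 1 of 3 start sites listed for the gene. The Ube2j1 window is chr4:33031130-33031429 on the plus strand, and the Vcp window is chr4:43000458-43000757 on the minus strand.
Dnaja1: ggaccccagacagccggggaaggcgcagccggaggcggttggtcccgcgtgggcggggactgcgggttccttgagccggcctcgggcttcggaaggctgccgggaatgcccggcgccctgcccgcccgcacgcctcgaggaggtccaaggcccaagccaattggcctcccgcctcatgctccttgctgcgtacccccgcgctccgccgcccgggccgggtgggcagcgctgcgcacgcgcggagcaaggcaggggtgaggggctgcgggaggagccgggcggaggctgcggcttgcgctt
Ube2j1: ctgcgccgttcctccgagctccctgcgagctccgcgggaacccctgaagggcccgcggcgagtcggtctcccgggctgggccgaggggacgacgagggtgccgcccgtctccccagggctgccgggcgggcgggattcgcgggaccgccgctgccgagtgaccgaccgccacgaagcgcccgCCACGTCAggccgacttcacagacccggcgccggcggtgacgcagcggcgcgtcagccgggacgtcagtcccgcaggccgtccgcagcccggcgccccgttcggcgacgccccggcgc
Vcp: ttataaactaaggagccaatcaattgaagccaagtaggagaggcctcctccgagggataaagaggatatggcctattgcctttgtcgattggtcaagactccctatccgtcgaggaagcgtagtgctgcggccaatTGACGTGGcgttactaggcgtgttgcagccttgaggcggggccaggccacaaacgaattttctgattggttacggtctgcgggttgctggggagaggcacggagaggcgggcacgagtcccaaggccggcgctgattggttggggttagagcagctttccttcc

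The unfolded protein response element was found in 2 of the 14 windows of the 10 genes, 1 of Vcp and 1 of Ube2j1. In Vcp it starts 114 bases upstream of the start site and reads on the gene's strand. In Ube2j1 it starts 68 bases upstream and reads on the opposite strand. That start site is the RefSeq one and lies before the gene's first base in GENCODE, at 33031416. Among all 32851 RefSeq windows of 300 bases, 222 (0.676%) held it on either strand. Golph3 held TGACGTCA, the cyclic AMP response element, which reads the same on both strands, 63 bases upstream of its start site, as did 588 windows (1.79%). The first 6 letters of both motifs are the same, but neither contains the other. No window of the 10 genes held the ER stress response element (CCAAT and CCACG with 9 bases between them), which 39 windows (0.119%) held, nor the heat shock element (GAA, TTC and again GAA with 2 bases between each), which 198 windows (0.603%) held. These are matches of letters in a short window and no measure of binding. The 14 windows of the 10 genes had a median GC content of 64%, against 52.7% over all windows, and 12 of the 14 lay above that median. The motif shares over all windows were not matched for GC content.

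All 10 genes were well counted. The lowest count in any library was 686 for Creb3 and the highest 6986 for Vcp. Per kilobase of merged exons, the mean levels over the 10 libraries were 477 ± 56.1 CPM per kb (SD, n = 10) for Sec61b, 474 ± 38.8 for Bag1, 338 ± 42.8 for Cct5 and 268 ± 37.4 for Vcp. Calu followed at 201 ± 22.5, Golph3 at 192 ± 4.31, Erp44 at 138 ± 7.99, Dnaja1 at 129 ± 34.1, Ube2j1 at 97.5 ± 7.77 and Creb3 at 86.5 ± 8.87 CPM per kb. Between neighbours in this order, the ranges of mean ± SD were separate for Bag1 and Cct5, Vcp and Calu, and Golph3 and Erp44, and they overlapped for all the other neighbours. Divided by the length of the principal transcript instead, the order was the same except that Dnaja1 stood above Erp44 and Creb3 above Ube2j1.

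The main question was whether the colon of Vista knockout mice differs from WT under DSS. Over both tables none of the 10 genes passed the test. Dnaja1 showed the largest fitted difference among them, 1.30-fold higher in the knockout with an interval from 1.01 to 1.68, and it rested on the first table, where the gene was 1.61-fold higher. For the other 9 genes the fitted folds lay between 1.02 for Bag1 and 1.15 for Ube2j1, and the 95% intervals of all 9 lay between 0.881 and 1.31. These intervals are unadjusted, and among the 9 only that of Ube2j1, from 1.03 to 1.28, lay wholly above 1. After adjustment over all rows tested, no difference in these genes passed with 5 libraries against 5.

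By edgeR's quasi-likelihood test with Benjamini-Hochberg adjustment, the table being a covariate, 0 of the 10 genes had an adjusted p under 0.05. The same rule called 5.63% of all 9736 rows tested and 8.9% of the 427 tested inside the regions. At an unadjusted p under 0.05 the count was 2 of 10, Ube2j1 and Dnaja1, against 23.3% of all rows, and 0 of 10 were called by DESeq2, which called 8.63% of all rows, or by voom, which called 5.79%. With no filter on low counts edgeR called 1 of 10, Dnaja1 (adjusted p = 0.00690), and 4.47% of all rows. Fitted values of knockout over WT, as log2 fold changes, were above 0 for 10 of 10 genes, against 52.6% of all rows and 46.4% of those inside the regions. Their median was 0.14, with 0.02 over all rows and -0.03 inside the regions. The list was drawn up with results of these libraries known, and its genes share libraries, so this is a description of the 10 values.

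**Figure D1:**
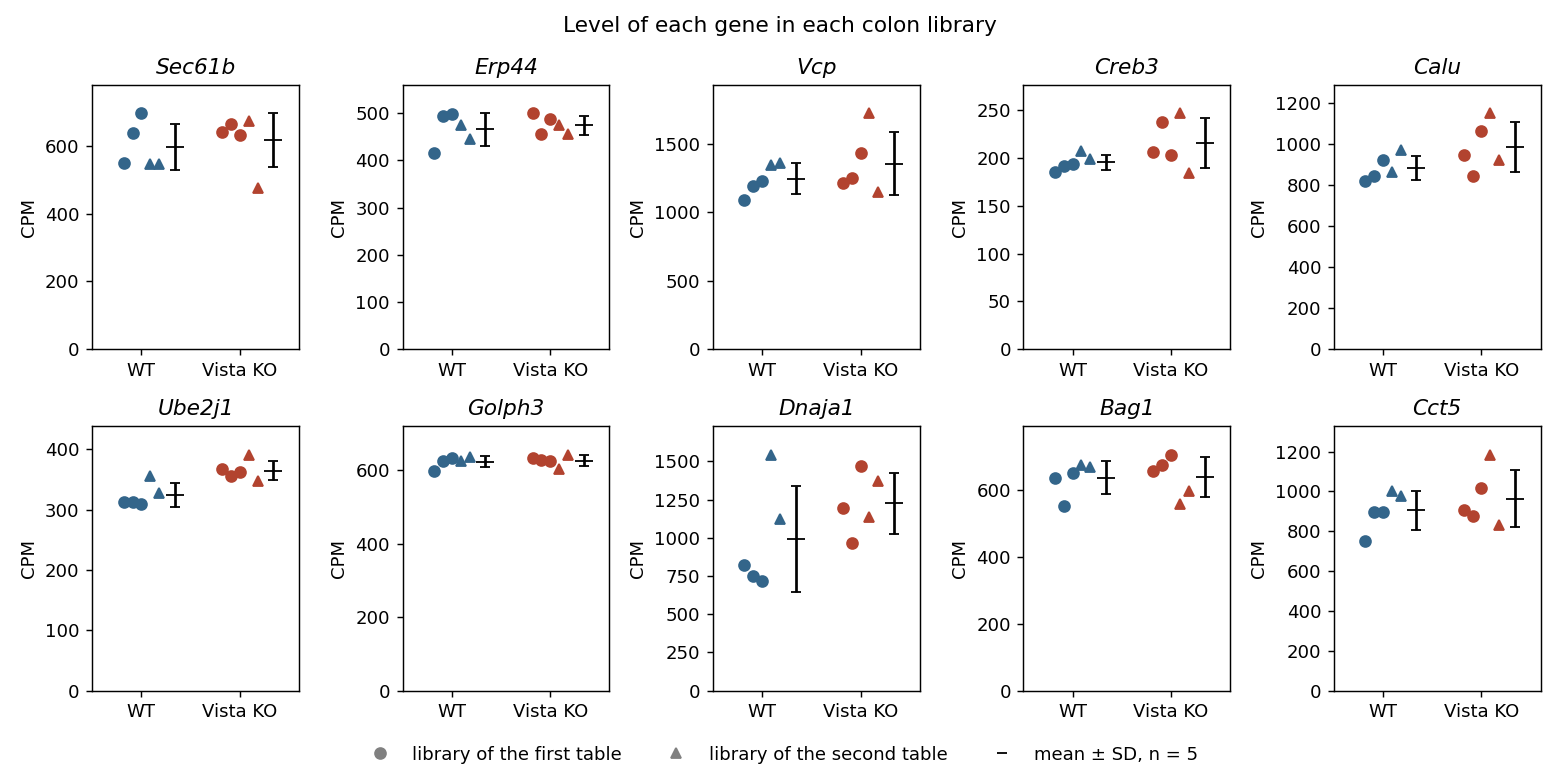
CPM (vertical axes from 0) of each gene in each library, WT in blue and knockout in red, circles for the first table and triangles for the second, with the mean ± SD of 5 libraries in black. Genotypes overlap in every panel, and the 3 WT circles of Dnaja1 lie between 720 and 823 CPM, below all other libraries of that gene.

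Translocation and folding in the ER are represented by Sec61b, Erp44 and Calu. Sec61b (chr4:47474658-47483242, plus strand) encodes the beta subunit of the Sec61 channel. Its levels in knockout 1 to 5 were 638.9, 664.7, 630.4, 673.0 and 475.6 CPM, and in WT 1 to 5 they were 549.3, 636.5, 695.1, 546.8 and 546.1 CPM. Knockout 5 was the lowest of the 10 libraries and WT 3 the highest, so the genotypes overlapped in full. The means were 617 ± 80.7 and 595 ± 68.1 CPM (SD, n = 5 each), and the log2 fold change was 0.08 ± 0.10 (SE; edgeR adjusted p = 0.656). It was 0.16 without knockout 5, and without knockout 4 the sign turned, at -0.01.

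Erp44 (chr4:48193323-48279558, minus strand) encodes a protein that retrieves ER enzymes from the early secretory pathway. It ran from 454.9 to 499.8 CPM in the knockout and from 415.6 to 498.8 in WT, where WT 1 was the lowest. Its log2 fold change was 0.05 ± 0.07 (SE; edgeR adjusted p = 0.683), with 0.0080 without WT 1 and 0.026 without knockout 1. Calu (chr6:29348069-29377110, plus strand) encodes calumenin, a calcium-binding protein of the ER lumen, and is the only one of the 10 on chromosome 6. Calu was at 949.9, 845.2, 1063, 1152 and 925.8 CPM in knockout 1 to 5 and at 820.1, 847.9, 921.5, 865.1 and 970.4 CPM in WT 1 to 5. In 4 of 5 knockout libraries the level was above that of WT 3, the second highest WT library. The log2 fold change was 0.18 ± 0.09 (SE), with an interval from -0.01 to 0.37 and an adjusted p of 0.225 by edgeR. It was 0.18 in each table fitted alone.

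Ube2j1 and Vcp act in ER-associated degradation. Ube2j1 (chr4:33031416-33052363, plus strand) encodes a ubiquitin-conjugating enzyme anchored in the ER membrane, and Vcp (chr4:42979963-43000507, minus strand) encodes the ATPase that pulls ubiquitin-marked proteins out of that membrane. Ube2j1 was at 366.7, 356.4, 361.9, 391.3 and 347.6 CPM in knockout 1 to 5, and at 313.1, 313.4, 308.7, 356.1 and 328.3 CPM in WT 1 to 5. Only WT 4 reached into the knockout range, above knockout 5 and just below knockout 2, and within the first table every knockout library was above every WT library. The means were 365 ± 16.4 and 324 ± 19.5 CPM (SD, n = 5 each). The log2 fold change was 0.20 ± 0.07 (SE), a 1.15-fold difference with an interval from 1.03 to 1.28, with an adjusted p of 0.125 by edgeR. Without knockout 5 it was 0.24 and the adjusted p was 0.0467, in a fit that called 10.4% of all rows.

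Vcp was at 1217, 1252, 1438, 1725 and 1153 CPM in knockout 1 to 5 and at 1089, 1196, 1232, 1346 and 1362 CPM in WT 1 to 5. Knockout 4 stood above all other libraries, while knockout 5 was lower than 4 of the 5 WT libraries. Its log2 fold change was 0.15 ± 0.10 (SE), with a 95% interval from -0.08 to 0.38, and it was 0.06 without knockout 4 and 0.24 without knockout 5 (edgeR adjusted p = 0.0608). A processed pseudogene of Vcp on chromosome X, Vcp-rs, held 378 counts over all libraries, against 50328 for Vcp.

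Creb3 (chr4:43562332-43567060, plus strand) encodes an ER-anchored transcription factor that is cut free in the Golgi and moves to the nucleus. It was at 206.2, 237.8, 202.8, 246.4 and 183.6 CPM in knockout 1 to 5 and at 185.6, 191.9, 193.2, 206.5 and 198.3 CPM in WT 1 to 5. The WT libraries lay close together, and the knockout libraries reached both higher and lower than all of them. The log2 fold change was 0.17 ± 0.10 (SE; edgeR adjusted p = 0.305). It was 0.10 without knockout 2, 0.11 without knockout 4 and 0.25 without knockout 5 (adjusted p = 0.0759). Of the merged exons of Creb3, 15.2% overlap exons of Tln1 and 5.61% those of Gba2, both on the opposite strand. Tln1, the talin gene, held 38629 counts against 7949 for Creb3. No strand setting is given in the sources used here, so whether and how far the overlap raised or lowered the Creb3 count cannot be told.

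Golph3 (chr15:12321450-12351591, plus strand) encodes a Golgi membrane protein that holds glycosylation enzymes in place. It was at 632.2, 626.8, 624.8, 603.6 and 642.7 CPM in knockout 1 to 5 and at 596.9, 624.6, 632.6, 626.3 and 635.0 CPM in WT 1 to 5. Its spread was the smallest of the 10 genes, with a coefficient of variation of 2.25% over all libraries and a highest level 1.08 times the lowest. Its log2 fold change was 0.04 ± 0.07 (SE; edgeR adjusted p = 0.779), with an interval from -0.11 to 0.18. With 1 library left out it ran from 0.010, without knockout 2, to 0.050.

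The cytosolic folding genes are Dnaja1, Bag1 and Cct5. Dnaja1 (chr4:40722150-40737149, plus strand) encodes a J-domain protein that delivers clients to the heat shock protein Hsp70. It was at 1193, 963.8 and 1473 CPM in knockout 1 to 3 and at 823.4, 752.2 and 720.0 CPM in WT 1 to 3. The second table had it at 1136 and 1369 CPM in knockout 4 and 5 and at 1545 and 1122 CPM in WT 4 and 5. The genotypes were fully separate in the first table, while in the second the 2 knockout libraries lay between the 2 WT libraries. The knockout means were 1210 CPM in the earlier table and 1252 in the later, while the WT means were 765 and 1334 CPM, so the tables differed mainly in their WT libraries. The highest level over the 10 libraries was 2.15 times the lowest, the widest range of the 10 genes.

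In the first table alone the log2 fold change of Dnaja1 was 0.69 ± 0.13 (SE), a 1.61-fold difference with an interval from 1.31 to 1.98, and the adjusted p was 0.0191 by edgeR. It was the only one of the 10 genes called there by edgeR, which called 6.06% of all rows and 3.1% as higher. DESeq2 and voom likewise called Dnaja1 alone of the 10, with 6.68% and 5.34% of all rows. Leaving out 1 library ended that call in 3 cases, with an adjusted p of 0.0603 without knockout 1, 0.0750 without WT 2 and 0.0656 without WT 3. In the second table alone the log2 fold change was -0.09 ± 0.21 (SE; edgeR adjusted p = 0.914), and 0 of the 10 genes were called, with 0.856% of all rows called and 0 of 10 at an unadjusted p under 0.05, against 14.5%. DESeq2 and voom also called 0 of 10 in the second table, with 4.42% and 0.282% of all rows. With both tables together the log2 fold change was 0.38 ± 0.17 (SE; edgeR adjusted p = 0.198).

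The difference of the Dnaja1 effect between tables was -0.78 ± 0.25 (SE) on the log2 scale, second minus first, with an adjusted p of 0.171 by edgeR, so it did not pass the threshold. The genotype label of the knockout libraries and the genome build named for the libraries also change with the table. Their parts in any difference between tables cannot be told apart. No gene of the 10 passed that test, which called 2.05% of all rows, and 2 of 10 had an unadjusted p under 0.05, Dnaja1 and Bag1, against 14.6% of all rows. DESeq2 and voom called 0 of 10 for that difference, with 3.52% and 1.58% of all rows. Without any filter on low counts the same term of Dnaja1 was -0.85 with an adjusted p of 0.00159, in a fit that called 2.54% of all rows. Leaving WT 4 and WT 5 out of the pooled comparison, with no table covariate, gave Dnaja1 a log2 fold change of 0.69 and an adjusted p of 0.0418 by edgeR, in a fit that called 0.771% of all rows. For Dnaja1 itself it was WT 1 to 3 that lay below all other libraries. WT 4 and WT 5, which stood apart on the first principal component, did so in B cell markers too. Pax5, Cd72 and Bach2 summed to between 25.2 and 30.1 CPM in WT 4 and WT 5. The sums were between 142 and 291 CPM in WT 1 to 3 and between 118 and 252 in the knockout. The part of such cells in the Dnaja1 levels was not tested. In bulk tissue, fewer cells of a type and less RNA per cell cannot be told apart. Exons of Dnaja1 overlap those of Smu1, on the opposite strand, over 7.05% of their length.

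**Figure D2:**
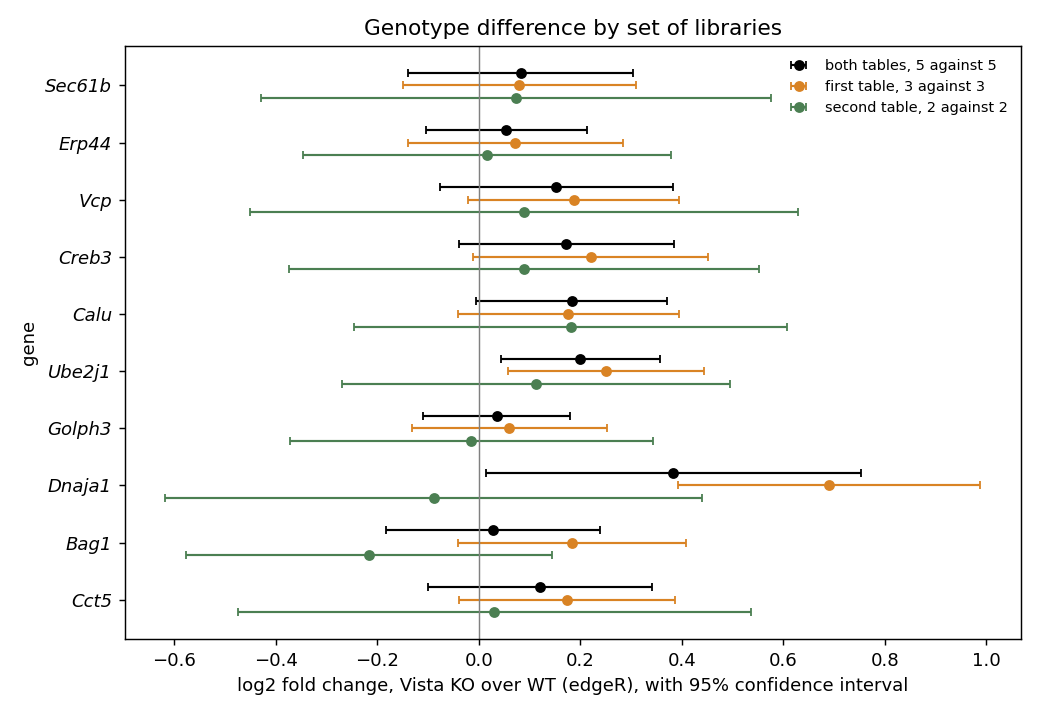
Fitted log2 fold change of knockout over WT for each gene (points) with its 95% confidence interval (bars), for both tables together in black, the first table in orange and the second in green. Dnaja1 in the first table, at 0.69, lies farthest from 0, and the intervals of the second table include 0 for all 10 genes.

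Bag1 (chr4:40936398-40948294, minus strand) encodes a cochaperone that makes Hsp70 release its clients. It was at 659.0, 677.4 and 707.4 CPM in knockout 1 to 3, above the 637.2, 552.5 and 653.4 CPM of WT 1 to 3. Knockout 4 and 5 in the second table were at 559.2 and 598.4 CPM, below WT 4 and 5 at 677.4 and 669.9 CPM. The genotypes thus did not overlap in either table, in opposite directions, which 1.08% of the 9563 rows tested in both tables also showed. In the first table the log2 fold change was 0.18 ± 0.10 (SE; edgeR adjusted p = 0.278), and the second table alone gave -0.22 ± 0.14 (SE; adjusted p = 0.600). Their difference was -0.40 ± 0.16 (SE; edgeR adjusted p = 0.271), and the log2 fold change over both tables was 0.03 ± 0.10 (SE; adjusted p = 0.887).

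Cct5 (chr15:31590800-31601804, minus strand) encodes a subunit of the ring-shaped chaperonin that folds actin and tubulin. It was at 906.0, 877.6, 1018, 1185 and 831.3 CPM in knockout 1 to 5 and at 753.6, 894.9, 899.1, 1001 and 976.1 CPM in WT 1 to 5. Knockout 4 was the highest library and WT 1 the lowest, and the genotypes overlapped in both tables. Its log2 fold change was 0.12 ± 0.10 (SE; edgeR adjusted p = 0.491). It was 0.04 without knockout 4, 0.07 without WT 1 and 0.21 without knockout 5 (adjusted p = 0.0945).

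In the first table every knockout library was above every WT library for 4 of the 10 genes, Creb3, Ube2j1, Dnaja1 and Bag1, which was the case for 13.5% of all rows tested and 10.8% of those inside the regions. In the second table this held for 0 of 10, against 22.1% of all rows, and every knockout library was below every WT library for Bag1 alone, against 22.7%. With both tables, no gene of the 10 had genotypes that did not overlap, against 2.71% of all rows with the knockout above and 4.51% with it below. The 10 genes had a median log2 fold change of 0.18 in the first table, where 10 of 10 were above 0 against 49.6% of all rows, and of 0.05 in the second, where 7 of 10 were above 0 against 51.7%.

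Several genes were high or low in the same libraries. Knockout 4 held the highest level of Vcp, Creb3, Calu, Ube2j1 and Cct5, and WT 1 held the lowest level of Erp44, Vcp, Calu, Golph3 and Cct5. Knockout 5, from the same table and genotype as knockout 4, held the lowest level of Sec61b and Creb3 and was below the mean of the 10 libraries for 7 of 10 genes. Together the 10 genes took 0.618% of all counts in WT 1, the lowest share, and 0.814% in knockout 4, the highest. The other WT libraries lay between 0.650% in WT 2 and 0.765% in WT 4, and the other knockout libraries between 0.696% in knockout 2 and 0.801% in knockout 3, so the shares of the genotypes overlapped.

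**Figure D3:**
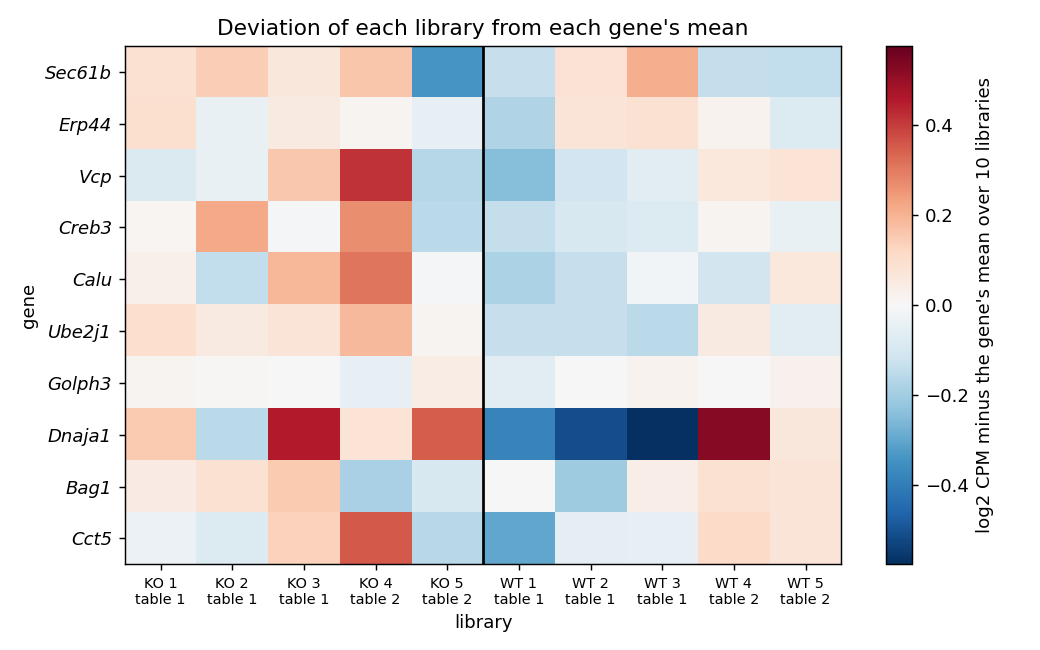
Log2 CPM of each gene (rows) in each library (columns) minus that gene's mean over the 10 libraries, red above and blue below the mean, with knockout libraries left and WT libraries right of the black line. The column of knockout 4 is red for 5 genes at their highest level, the Golph3 row is nearly blank, and the Dnaja1 row is dark blue in WT 2 and WT 3 and dark red in WT 4.

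Other genes of the same pathways inside the regions were read from 5 lists, with 37 genes tested. In the comparison over both tables, edgeR called 3 of the 37 (8.11%), against 5.63% of all rows and 8.9% of those inside the regions, so in that fit the share was near the background. B4galt1 rose, where 2.7% of all rows rose, and 2 genes fell, where 2.93% did, all 3 in the list of 9 glycosylation and GPI anchor genes. Voom called the same 3 genes, against 5.79% of all rows. DESeq2 called 6 (16.2%, against 8.63% of all rows), adding Unc13b (adjusted p = 0.0246), Stx17 (adjusted p = 0.0209) and Nans. EdgeR with no filter also called 6 (16.2%, against 4.47% of all rows), adding Rad23b (adjusted p = 0.0108), Unc13b (adjusted p = 0.0235) and Nans. Nans, a sialic acid synthesis gene, is named for these calls, after its values were seen. B4galt1 encodes a galactosyltransferase of the Golgi. It was at 1175, 1365, 978.9, 727.3 and 819.0 CPM in knockout 1 to 5 and at 854.5, 598.2, 618.4, 489.6 and 545.9 CPM in WT 1 to 5. The genotypes did not overlap within either table, and the log2 fold change was 0.72 with an adjusted p of 0.0163 by edgeR.

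Galnt12, which starts mucin-type sugar chains, fell by 0.59 on the log2 scale (edgeR adjusted p = 0.0227), with 299.0 to 409.2 CPM in the knockout and 448.1 to 647.3 in WT. Its log2 fold change was -0.34 in the first table (edgeR adjusted p = 0.0787) and -0.97 in the second (adjusted p = 0.0693). Their difference was -0.62 ± 0.18 (SE; edgeR adjusted p = 0.110). For that difference edgeR and voom called 0 of the 37 genes, against 2.05% and 1.58% of all rows. DESeq2 called 1, Galnt12, against 3.52%, and edgeR with no filter called 2, Galnt12 among them, against 2.54%. Slc35a1, which carries activated sialic acid into the Golgi, fell by 0.39 (adjusted p = 0.0418), from between 575.2 and 747.7 CPM in WT to between 464.4 and 594.9 in the knockout. Without WT 4 the adjusted p was 0.0521 for B4galt1 and 0.0549 for Galnt12, and without WT 5 it was 0.0574 for Galnt12. Without the table covariate it was 0.0674 for B4galt1. Without the covariate and without both WT 4 and WT 5, which stood apart on the first principal component, it was 0.196 for B4galt1 and 0.0975 for Galnt12. The Slc35a1 call was lost in 10 of 18 alternative analyses, 8 of them the removal of 1 library (knockout 1, 2, 3 or 4, or WT 2, 3, 4 or 5), with adjusted p from 0.0534 to 0.103. The median log2 fold change of the list was -0.02.

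Among the 3 libraries against 3 of the first table, 3 of the 37 genes rose and 0 fell by edgeR, against 3.1% and 2.96% of all rows. DESeq2 called 4 and voom 2 of the 37 there, all higher, in fits that called 6.68% and 5.34% of all rows. Rad23b, a shuttle that takes ubiquitin-marked proteins to the proteasome, was at 802.4, 790.9 and 831.4 CPM in knockout 1 to 3 and at 525.5, 606.8 and 592.4 CPM in WT 1 to 3, with a log2 fold change of 0.53 and an adjusted p of 0.0106 by edgeR. In the second table it was at 989.0 and 638.5 CPM in knockout 4 and 5 and at 696.7 and 796.2 CPM in WT 4 and 5, and over both tables its log2 fold change was 0.37 (adjusted p = 0.101). Like Dnaja1, Rad23b separated the genotypes fully in the first table but not in the second. The other 2 that rose were B4galt1, at 0.80, and Unc13b, a vesicle priming gene, at 0.44 (adjusted p = 0.0474). EdgeR called 0 of the 37 genes in the second table, in a fit that called 0.856% of all rows. Of the 37, 6 had an unadjusted p under 0.05 there, against 14.5% of all rows. Voom called 0, with 0.282% of all rows called, and DESeq2 called 1, Galnt12, with 4.42%.

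The other lists held no call over both tables by edgeR with its filter or by voom, while DESeq2 called Unc13b and Stx17, as given above. Of the 4 genes of ER folding, membrane and translocation, Asph, an ER hydroxylase and calcium-handling gene, had a log2 fold change of -0.38 (edgeR adjusted p = 0.0980), with every knockout library, at 148.1 to 227.3 CPM, below every WT library, at 233.0 to 299.2. Tmem38b, an ER cation channel gene, was at 50.6 to 72.8 CPM in the knockout and 59.9 to 93.1 in WT. March6, an ER ubiquitin ligase gene in the list of 7 degradation genes, was at 344.1 to 377.8 CPM in the knockout, below all WT libraries at 398.2 to 455.4, with a log2 fold change of -0.21 (adjusted p = 0.116). Such separation, with the knockout below, was seen for 4.51% of all rows tested and 9.84% of those inside the regions. Among 4 J-domain and cochaperone genes, Dnajb5 had 0.22 (adjusted p = 0.226) and Dnajc21 0.13 (adjusted p = 0.317). Among 13 Golgi and vesicle traffic genes, Stx17, a membrane fusion gene, had -0.38 (adjusted p = 0.0610) and Unc13b 0.38 (adjusted p = 0.0554).

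**Figure D4:**
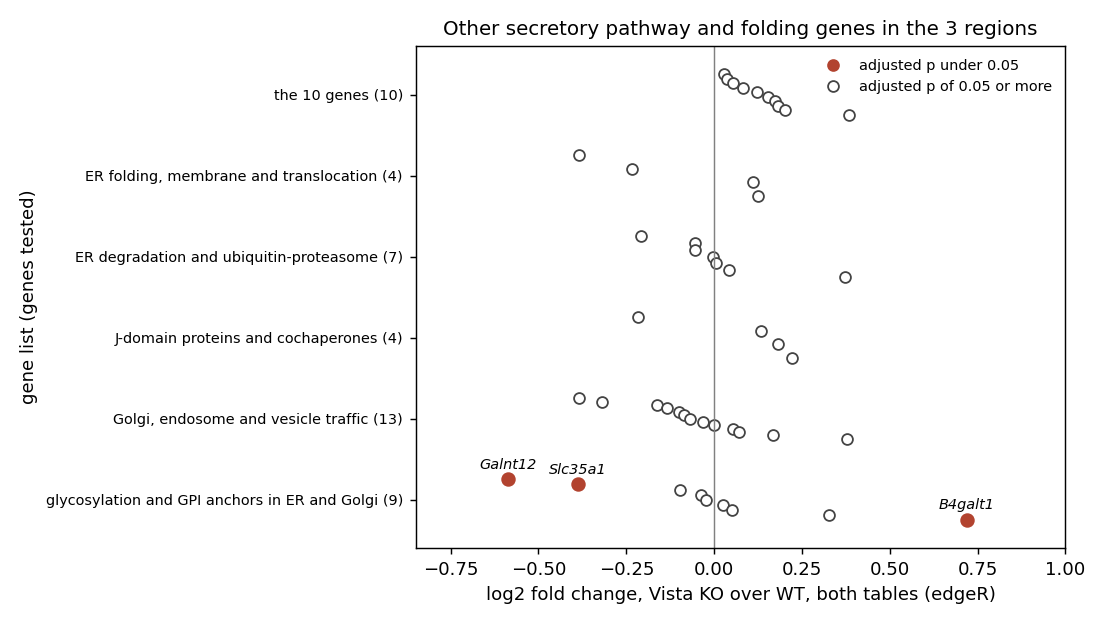
Fitted log2 fold change of knockout over WT over both tables (horizontal axis) for the 10 genes and for the 5 lists of other genes, 1 point a gene, filled red where the edgeR adjusted p was under 0.05. All 10 points of the top row lie above 0 and none is filled, and the 3 filled points, Galnt12, Slc35a1 and B4galt1, are in the glycosylation list.

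Marker RNA of other cell types varied between the same libraries. The goblet cell marker Spink4 ran from 690 to 2854 CPM in the knockout and from 1347 to 3634 in WT. Stromal markers, Col1a2, Col15a1, Svep1 and Matn2, summed to between 757 and 1392 CPM in the knockout and between 785 and 1496 in WT, and smooth muscle markers, Tpm2, Flnc and Cav1, to between 965 and 2104 and between 1068 and 1875. In the first table the log2 fold changes of Col1a2, Col15a1, Svep1 and Matn2 were -0.53, -0.61, 0.15 and -0.49. In the second they were 0.56, -0.13, 1.35 and 0.07. Those of Tpm2, Flnc and Cav1 were -0.60, 0.82 and -0.51 in the first table and -0.14, -0.09 and 0.89 in the second. EdgeR called none of these stromal and smooth muscle genes in either table. Of the 16 marker genes, edgeR called 1 over both tables, Cftr, which fell by 0.69 on the log2 scale. That fit called 5.63% of all rows. Cftr and the B cell gene Bach2 fell in the first table, where Dnaja1 was called, by 0.62 and 0.77. These were the 2 of 16 called there, against 6.06% of all rows. The B cell genes Pax5 and Cd72 rose in the second table, by 3.73 and 2.37. They were the 2 of 16 called there, against 0.856% of all rows. The genotype effect differed between tables for all 3 B cell genes, by 4.58 for Pax5, 3.08 for Cd72 and 3.10 for Bach2. EdgeR called these 3 of 16 for that difference, against 2.05% of all rows. The part of cell makeup in the levels of the 10 genes was not tested.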

How the data were processed

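Colon RNA of 5 Vista knockout and 5 WT libraries was measured by sequencing. The authors deposited raw read counts per Ensembl gene. The tools were, per the submitters' processing notes, HISAT2 (2.2.1 for the first 6 libraries) and featureCounts 2.0.1, and the builds named were GRCh38, a human assembly, for the first 6 libraries and mm10 for the other 4. The annotation and strand setting are not given in the sources used here.

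GENCODE M21 named 52083 of 55416 rows, and the 3333 rows without a name, 0.358% to 0.410% of a library's counts, stayed in totals and tests. The 10 genes, the gene lists and the 3 regions were chosen with earlier results of these data known. The regions were taken over as given and not rebuilt. Every one of the 10 genes is named with its values. Of 38 other pathway genes on the lists, Ube2h was left out because it does not lie wholly inside the regions, and the genes named are those past the threshold over both tables and, in a list with none, the 2 with the smallest p, 11 in all.

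CPM was computed from column totals. Tests used edgeR 4.0.16 in R 4.3.3 (quasi-likelihood test), after filterByExpr and TMM normalization, with p-values adjusted by Benjamini-Hochberg over all rows tested (9736 over both tables, 9829 in the first, 9932 in the second), at 0.05. The table was a covariate over both tables, each table also had a fit of its own, and an interaction term compared the genotype effect between tables. A standard error is the log2 fold change divided by the root of the F statistic, and a 95% interval uses the t distribution with the fit's total degrees of freedom, unadjusted. Alternatives were DESeq2 1.42.0, voom in limma 3.58.1, other scalings, no filter, no covariate and leaving libraries out. The scripts were tested on simulated data. Over 45 pairs of libraries none differed by only counting noise, the closest, WT 2 and WT 3, having a mean chi-square per row of 4.06.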

Additional observations from a re-analysis of the deposited data

Results flagged for a closer look

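In 5 of 42 groups of 5 libraries examined, 1 library lay far from the other 4, where chance gives about 1 in 20 groups, or 2.1. The groups share libraries and each holds libraries of both tables, so 2.1 is only a rough guide. Sec61b was at 475.6 CPM in knockout 5, with the other knockout libraries between 630.4 and 673.0. Golph3 was at 596.9 CPM in WT 1, with the other WT libraries between 624.6 and 635.0, a small gap in a gene of little spread. Asph was at 148.1 CPM in knockout 4, below the other knockout libraries at 207.8 to 227.3. Dnajb5 was at 88.0 CPM in WT 5, above the other WT libraries at 68.0 to 72.2. Slc35a1 was at 575.2 CPM in WT 1, below the other WT libraries at 723.6 to 747.7 and within the knockout range.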

How the results depend on the processing

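The lowest count of these genes in a library was 686. Intervals were wider in the second table, with 2 libraries against 2, than over both tables, with 5 against 5. No paired analysis was possible because no replicate number in the labels links a knockout library to a WT one. The scaling to counts inside the regions was chosen after the data were seen. Leaving out a library of the second table leaves 1 in a genotype, which is then assumed to vary like the others.

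Over both tables the count of the 10 genes called was 0 and became 1 in 3 of 18 alternatives. Without a filter on low counts it was 1, Dnaja1 at an adjusted p of 0.00690 by edgeR, with 4.47% of 28202 rows called. With 2 choices changed together, WT 4 and 5 left out and no table covariate, it was 1, again Dnaja1, with 78 rows called in all against 548. With no covariate alone it was 0, and Dnaja1 had an adjusted p of 0.341. Leaving out 1 library gave counts from 0 to 1, the 1 being Ube2j1 without knockout 5, where 1028 rows were called. In the first table leaving out 1 library gave counts from 0 to 1, and in the second the count was 0 in all 10 alternatives. The count for the difference between tables was 0 and became 1 with no filter on low counts, where 717 rows were called against 200. The cause was not tested.

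Over all alternatives the pooled log2 fold change of Dnaja1 ran from 0.27 to 0.69 (adjusted p from 0.00690 to 0.379) and that of Ube2j1 from 0.17 to 0.25 (adjusted p from 0.0467 to 0.434). With 1 library left out, signs turned in both tables together for Sec61b (-0.0077 to 0.16) and Bag1 (-0.0405 to 0.0733). In the second table they turned for Sec61b (-0.19 to 0.29), Erp44 (-0.0457 to 0.0655), Vcp (-0.22 to 0.34), Creb3 (-0.13 to 0.28), Golph3 (-0.0716 to 0.0345), Dnaja1 (-0.31 to 0.16) and Cct5 (-0.24 to 0.25). The difference between tables turned for Sec61b (-0.27 to 0.22), Erp44 (-0.11 to 0.0043), Vcp (-0.41 to 0.16), Creb3 (-0.35 to 0.0627), Calu (-0.15 to 0.15) and Cct5 (-0.41 to 0.0881). It also turned for Sec61b with library totals (0.0316) and for Calu with no filter (-0.0680) and with scaling to the regions (-0.0150). None of these values passed the threshold.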
